A study of Mus musculus with 12 samples.

Results

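The genes described here are 10 imprinted genes with known roles in growth, Igf2, H19, Dlk1, Meg3, Cdkn1c, Peg3, Grb10, Plagl1, Mest and Ndn. They were chosen by name, as a list, from the 46603 genes counted in the neocortex of Chd8+/+ and Chd8+/- mice. RNA had been sequenced from neocortical tissue taken at E12.5 (both hemispheres) and at P5 (a single hemisphere), with n = 3 libraries for each genotype at each stage and 12 libraries in all. The Chd8+/- mice carry a null allele made by Cre deletion of a floxed exon, with Cre itself bred out of the line, and the wildtype Chd8+/+ mice came from the same crosses to C57BL/6J. The labels give C57Bl/6J as the strain background of all 12 libraries, and neither the labels nor the counts say from which parental copy a read came. Whether the null allele reached a given library's mouse through its mother or its father is not stated for single libraries.

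An imprinted gene is transcribed mainly from the copy inherited from one parent, because a differentially methylated region at its locus carries a mark set in the egg or the sperm. Genes expressed from the paternal copy, such as Igf2, Dlk1, Peg3, Plagl1, Mest and Ndn, are often growth-promoting, and genes expressed from the maternal copy, such as H19, Meg3 and Cdkn1c, are often growth-restraining, with exceptions to both. Many members are abundant in fetal tissue and are turned down after birth as organ growth slows. Chd8 encodes a chromatin remodeler, and the study asked which transcripts differ in neocortex that has a single intact copy of it.

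The members lie in several clusters of the GRCm38 genome. Igf2 (chr7:142650766-142666816, minus strand), the fetal insulin-like growth factor, lies 72.6 kb from H19 (chr7:142575529-142578143, minus strand), a long noncoding RNA that shares its enhancers. Cdkn1c (chr7:143458350-143461050, minus strand), a cyclin-dependent kinase inhibitor, lies 791.5 kb from Igf2. Dlk1 (chr12:109452823-109463336, plus strand), a transmembrane protein related to Notch ligands, lies 77.7 kb from Meg3 (chr12:109541001-109571726, plus strand), a long noncoding RNA. Ndn (chr7:62348277-62349928, plus strand), which encodes necdin of the MAGE family, consists of 1 exon. Peg3 (chr7:6703892-6730421, minus strand) and Plagl1 (chr10:13060504-13131694, plus strand) encode zinc finger proteins. Grb10 (chr11:11930508-12038683, minus strand) encodes an adaptor that dampens insulin and IGF receptor signaling, and Mest (chr6:30723547-30748465, plus strand) a protein of the hydrolase fold family.

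To show the CG content ahead of members that moved in different ways between the stages, the 250 bases before a start site are given for 5 of them, from RefSeq on GRCm38.p6. Capitals mark CG dinucleotides, the kind of site that imprinting marks methylate. The windows were not chosen as differentially methylated regions, and methylation was not measured. The table held windows for 8 of the 10 genes (not H19 and Cdkn1c), 15 windows in all.
Dlk1, chr12:109452573-109452822, plus strand: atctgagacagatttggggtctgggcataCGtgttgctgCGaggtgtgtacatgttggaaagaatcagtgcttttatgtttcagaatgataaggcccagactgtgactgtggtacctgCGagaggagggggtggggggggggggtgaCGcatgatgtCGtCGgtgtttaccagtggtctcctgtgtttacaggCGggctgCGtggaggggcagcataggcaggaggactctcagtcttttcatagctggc
Meg3, chr12:109540746-109540995, plus strand: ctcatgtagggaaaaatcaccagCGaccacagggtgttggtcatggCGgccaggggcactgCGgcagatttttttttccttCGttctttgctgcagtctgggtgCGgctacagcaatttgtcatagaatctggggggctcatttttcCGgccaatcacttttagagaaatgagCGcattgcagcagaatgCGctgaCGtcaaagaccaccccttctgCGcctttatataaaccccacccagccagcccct
Ndn, chr7:62348027-62348276, plus strand: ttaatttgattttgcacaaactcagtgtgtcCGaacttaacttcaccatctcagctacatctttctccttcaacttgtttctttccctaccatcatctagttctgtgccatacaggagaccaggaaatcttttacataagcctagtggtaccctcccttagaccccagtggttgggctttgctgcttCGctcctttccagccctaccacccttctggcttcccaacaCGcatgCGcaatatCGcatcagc
Plagl1, chr10:13090582-13090831, plus strand: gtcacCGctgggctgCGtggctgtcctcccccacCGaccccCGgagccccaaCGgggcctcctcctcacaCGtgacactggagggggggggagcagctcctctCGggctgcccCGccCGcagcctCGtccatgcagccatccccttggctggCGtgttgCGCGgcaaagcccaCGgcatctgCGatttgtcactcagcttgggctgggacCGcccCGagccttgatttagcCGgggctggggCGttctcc
Mest, chr6:30737800-30738049, plus strand: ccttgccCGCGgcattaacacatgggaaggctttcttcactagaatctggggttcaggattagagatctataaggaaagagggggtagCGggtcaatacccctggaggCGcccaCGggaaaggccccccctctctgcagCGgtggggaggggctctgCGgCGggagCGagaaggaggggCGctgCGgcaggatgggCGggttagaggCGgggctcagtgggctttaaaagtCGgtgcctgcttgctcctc

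The Plagl1 window held 19 CG dinucleotides, the Mest window 14, the Meg3 window 10, the Dlk1 window 8 and the Ndn window 5, against a median of 6 over all 32851 windows of this length. At least 10 CG dinucleotides were found in 7 of the 15 member windows, counting both overlapping Mest windows, and in 37.8% of all windows. The letters TGCCGC, the core that the imprint-keeping protein Zfp57 binds, which hold 1 CG themselves, were searched on both strands and occurred in 4 of the 15 windows, at Meg3, Plagl1 and both overlapping Mest starts, and in 8.68% of all windows. Both these Mest windows share nearly all their bases, so the letters occurred at 3 of the 8 genes with a window. The palindrome GGGGCCCC, which the Plagl1 protein binds, occurred in the Peg3 window and in 0.889% of all windows. These matches describe the sequence alone.

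H19 and Mest are also hosts of microRNAs, which are shown because both hosts fell strongly between the stages. Capitals mark the seed, bases 2 to 8, and no seed is shared among them.
mmu-miR-675-5p (H19, exonic): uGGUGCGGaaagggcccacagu
mmu-miR-675-3p (H19, exonic): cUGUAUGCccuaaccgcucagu
mmu-miR-335-5p (Mest, intronic): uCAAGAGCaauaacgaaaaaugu
mmu-miR-335-3p (Mest, intronic): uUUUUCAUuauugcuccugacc
Mature microRNAs are not captured in mRNA libraries. Reads counted on the Mir335 gene itself came to 73 over the 6 E12.5 libraries and 2 over the 6 P5 libraries. Mir675 lies on 84 bases of H19 exon and had 0 at both stages, but featureCounts by default leaves out reads that fall on 2 genes, so this 0 is no measurement of it.

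Library totals ran from 38774591 to 54695236 counts. Chd8 itself was lower in Chd8+/- by 0.51 on the log2 scale at E12.5 (edgeR adjusted p = 0.00562) and by 0.61 at P5 (edgeR adjusted p = 7.21e-05), and in both tests it was the only gene called. All 12 neocortical markers examined, among them Emx1, Tbr1 and Slc17a7, were detected in every library. At E12.5, replicate 2 of Chd8+/- stood apart, with a summed level of 1277 CPM (counts per unit of library size, TMM-scaled over all 12 libraries) for 14 meningeal fibroblast markers against 659 to 966 in the other 5 libraries. Its summed neocortical markers were 1403 CPM against 1675 to 1892 CPM, and its hypothalamic and diencephalic markers 403 CPM against 176 to 221 CPM. For the members whose values it moved most, the values without it are given too. Nothing in the labels says more of how the libraries of a group were separate than that there were 3, so the p-values measure the spread between these samples.

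Between E12.5 and P5, 7 of the 10 members fell, Meg3 rose, and Igf2 and Ndn passed in neither direction, in both genotypes alike. Each gene's level was compared in a 12-library edgeR model with Benjamini-Hochberg adjustment over 19676 genes and a threshold of 0.05. Over all genes tested, 83.1% passed in Chd8+/+ (41.4% higher and 41.7% lower at P5) and 82.9% in Chd8+/- (41.3% higher and 41.6% lower), so that 8 of 10 passing is near the background, while 7 of 10 lower compares with 41.7% and 41.6%. The median log2 fold change of the members was −2.81 in Chd8+/+ and −2.96 in Chd8+/-, against −0.02 and −0.005 over all genes. Stage cannot be told apart here from dissection (both hemispheres or one), the sequencing runs or the separate count tables, and in bulk tissue fewer cells of a type cannot be told apart from less RNA per cell. Cell type markers also moved: summed erythroid markers ran from 3237 to 4633 CPM at E12.5 and from 107 to 131 CPM at P5, summed meningeal markers from 659 to 1277 CPM and from 388 to 500 CPM, and summed microglial markers from 52.6 to 59.5 CPM and from 174 to 231 CPM. In both genotypes 9 of 10 erythroid markers were lower at P5 and 1 higher, 10 of 11 microglial markers were higher, and the 14 meningeal markers went both ways, with 8 lower and 5 higher (Slc6a13, Fmod, Aldh1a2, Ogn and Dcn), and at P5 the embryonic globins Hba-x, Hbb-bh1 and Hbb-y were at 0 in some libraries. Their part in the members' changes was not tested.

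**Figure D1:**
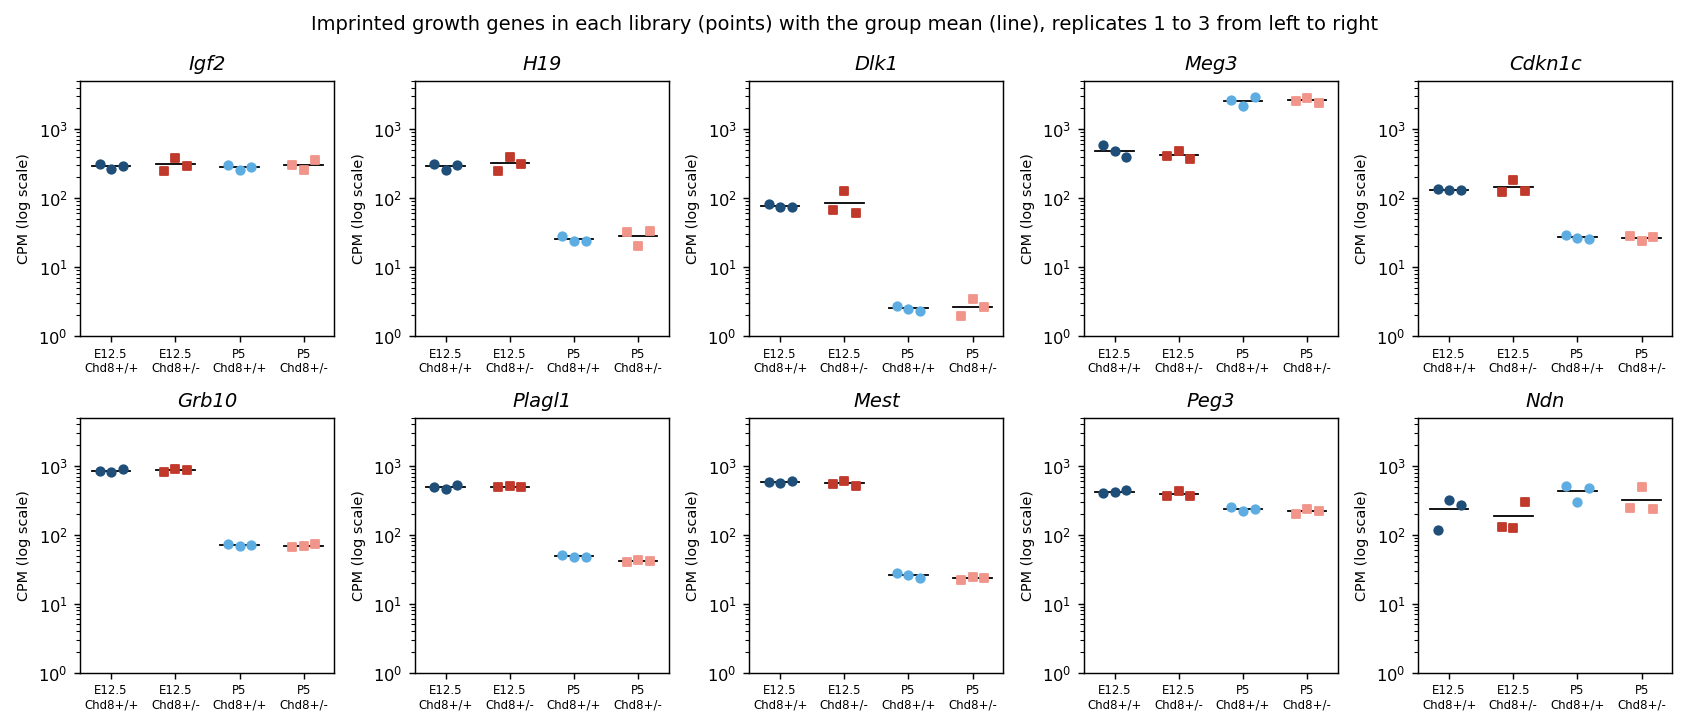
CPM of each imprinted growth gene (log axis) in the 12 libraries by group, with 1 point per library and a line at the group mean. Dlk1, Mest, Grb10, H19, Plagl1, Cdkn1c and Peg3 sit lower at P5 and Meg3 higher, Igf2 is at a like level in all 4 groups, and the points of Ndn are spread widely within groups.

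Dlk1 and Mest had the largest falls. Dlk1 was at 83.3, 75.2 and 74.1 CPM in replicates 1, 2 and 3 of Chd8+/+ at E12.5 and at 67.2, 125.9 and 61.7 CPM in those of Chd8+/-. At P5 it was at 2.76, 2.46 and 2.30 CPM in Chd8+/+ and at 1.94, 3.38 and 2.63 CPM in Chd8+/-, on 81 to 148 counts per library. No P5 library came near any E12.5 library, and the high value at E12.5 belongs to the library that stood apart. The fall was 30.8-fold in Chd8+/+ (log2 fold change −4.95 ± 0.27 SE, edgeR adjusted p = 2.00e-10) and 32-fold in Chd8+/- (−5.00 ± 0.27 SE, edgeR adjusted p = 1.83e-10), or 24.3-fold in Chd8+/- without that library (−4.60 ± 0.13 SE). Mest ran from 519 to 614 CPM over the 6 E12.5 libraries and from 22.1 to 27.6 CPM over the 6 P5 libraries. It fell 22.7-fold in Chd8+/+ (−4.50 ± 0.08 SE, edgeR adjusted p = 1.30e-15) and 23.8-fold in Chd8+/- (−4.57 ± 0.08 SE). Of the annotated Mest exon bases, 23.1% lie opposite exons of Copg2, which was counted at 118 to 134 CPM at E12.5 and 60.0 to 66.3 CPM at P5. Reads there could not be assigned by strand in the P5 count command.

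Grb10, H19 and Plagl1 each fell by more than 10-fold with all libraries in the model. Grb10, the dampener of insulin and IGF receptor signaling, ran from 811 to 911 CPM at E12.5 and from 66.5 to 72.9 CPM at P5, with falls of 11.9-fold in Chd8+/+ (−3.58 ± 0.06 SE, edgeR adjusted p = 1.04e-15) and 12.5-fold in Chd8+/- (−3.65 ± 0.06 SE). H19 was at 307, 259 and 298 CPM in Chd8+/+ and 245.5, 399 and 314 CPM in Chd8+/- at E12.5. At P5 it was at 28.3, 24.2 and 23.5 CPM in Chd8+/+ and at 31.8, 20.2 and 33.3 CPM in Chd8+/-. The falls were 11.4-fold (−3.51 ± 0.19 SE, edgeR adjusted p = 2.04e-10) and 11.2-fold (−3.49 ± 0.19 SE), or 9.85-fold in Chd8+/- without replicate 2 at E12.5 (−3.30 ± 0.16 SE), and the spread among libraries of a stage was far smaller than the difference between stages. Plagl1 ran from 466 to 523 CPM at E12.5 and from 40.7 to 50.1 CPM at P5, with falls of 10.2-fold in Chd8+/+ (−3.35 ± 0.05 SE, edgeR adjusted p = 5.74e-16) and 11.9-fold in Chd8+/- (−3.57 ± 0.05 SE).

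Smaller falls were seen for Cdkn1c and Peg3. Cdkn1c, the kinase inhibitor that takes precursors out of the cell cycle, was at 134, 129 and 129.9 CPM in Chd8+/+ and at 121, 181 and 127 CPM in Chd8+/- at E12.5, and ran from 23.9 to 28.8 CPM over the 6 P5 libraries. Its falls were 4.84-fold (−2.28 ± 0.12 SE, edgeR adjusted p = 2.10e-10) and 5.37-fold (−2.42 ± 0.12 SE), or 4.66-fold in Chd8+/- without replicate 2 at E12.5 (−2.22 ± 0.06 SE). Peg3 ran from 365 to 444 CPM at E12.5 and from 202 to 252 CPM at P5, falling 1.78-fold in both genotypes (−0.83 ± 0.08 SE in each, edgeR adjusted p = 1.77e-07 and 1.84e-07), or 1.67-fold in Chd8+/- without that library. Its groups did not overlap between the stages, although the change was the smallest among the 8 members that passed.

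Meg3 was the only member called higher at P5. It was at 590.0, 483 and 389.9 CPM in Chd8+/+ and at 404, 481 and 369 CPM in Chd8+/- at E12.5, and at 2633, 2138 and 2917 CPM in Chd8+/+ and 2566, 2875 and 2386 CPM in Chd8+/- at P5. The rise was 5.25-fold in Chd8+/+ (2.39 ± 0.15 SE, edgeR adjusted p = 1.31e-09) and 6.25-fold in Chd8+/- (2.64 ± 0.15 SE, edgeR adjusted p = 4.49e-10), or 6.74-fold without replicate 2 of Chd8+/- at E12.5. Other noncoding RNAs of the cluster rose too. Rian rose by 1.35 ± 0.09 SE on the log2 scale in Chd8+/+ and 1.33 ± 0.09 SE in Chd8+/- (edgeR adjusted p = 3.19e-09 and 3.66e-09), and Mirg, the microRNA host at the far end, by 0.58 ± 0.13 SE and 0.90 ± 0.13 SE (edgeR adjusted p = 0.000712 and 1.54e-05). Counts on Rtl1, a coding gene of the cluster, rose by 0.99 ± 0.23 SE and 1.30 ± 0.23 SE (edgeR adjusted p = 0.00101 and 8.79e-05). An antisense RNA from the maternal copy overlaps Rtl1, which is itself expressed from the paternal copy, and without strand in the P5 count command the reads of both cannot be told apart. Rian, Mirg and Rtl1 were named after their values were seen. Per kilobase of exon, Meg3 stood at 1.96 ± 0.29 times the level of Dlk1 (SD, n = 3) in Chd8+/+ at E12.5 and at 323 ± 66.1 times at P5, and in Chd8+/- at 1.65 ± 0.39 and 321 ± 80.5 times. At E12.5 the ratio was 1.19 in replicate 2 of Chd8+/- and 1.88 and 1.87 in the other 2 Chd8+/- libraries.

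**Figure D2:**
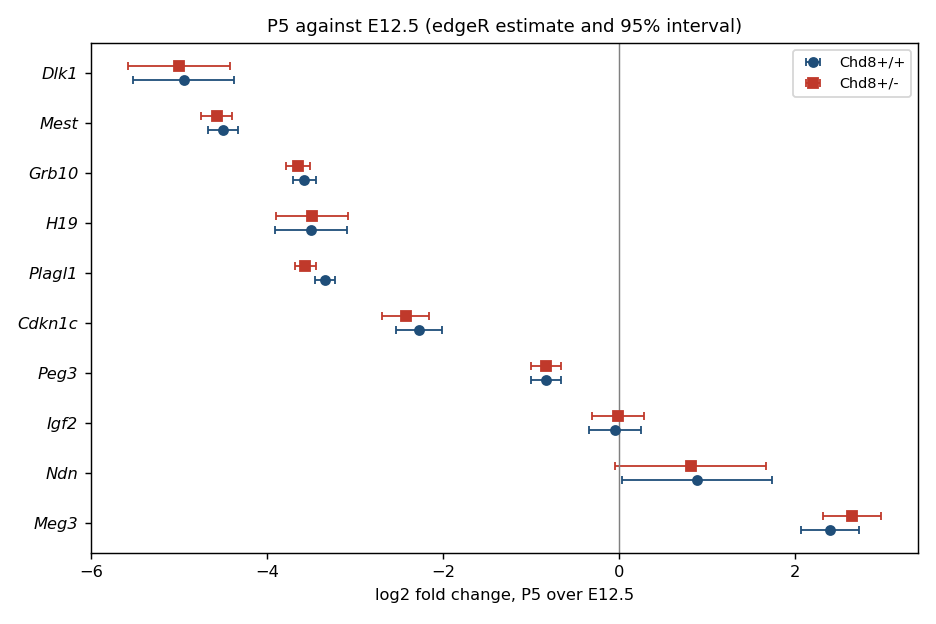
Log2 fold change of each gene at P5 over E12.5 with its 95% interval from the edgeR model, in Chd8+/+ (circles) and Chd8+/- (squares). The intervals of Igf2 in both genotypes span 0, those of Meg3 lie above 0, and 7 genes lie below 0 from Peg3 at −0.83 to Dlk1 at −4.95 and −5.00.

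Igf2, the growth factor of the list, did not pass in either genotype. It was at 309, 263 and 289.8 CPM in Chd8+/+ and 249.9, 386 and 295 CPM in Chd8+/- at E12.5, and at 298, 255 and 281 CPM in Chd8+/+ and 305, 257 and 359 CPM in Chd8+/- at P5. The stages overlapped in both genotypes. The log2 fold change was −0.05 in Chd8+/+ (95% interval −0.35 to 0.25, edgeR adjusted p = 0.760) and −0.01 in Chd8+/- (95% interval −0.31 to 0.29, edgeR adjusted p = 0.928, and 0.17 without replicate 2 at E12.5, edgeR adjusted p = 0.188), so that changes of the size seen for H19 lie outside these intervals. Per kilobase of exon, the ratio of Igf2 to H19 went from 0.414 ± 0.010 (SD, n = 3) at E12.5 to 4.56 ± 0.35 at P5 in Chd8+/+ and from 0.404 ± 0.016 to 4.57 ± 0.66 in Chd8+/-. At E12.5 this ratio was between 0.390 and 0.422 in all 6 libraries, including the library that stood apart, in which both genes were at their highest.

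Within a group, the libraries differed in Igf2 in step with fibroblast markers of the meninges, the membranes around the brain, where Igf2 is known to be abundant. The order of the 3 libraries by Igf2 was the order by the summed level of the 14 meningeal fibroblast markers in 4 of 4 groups, and the order by H19 was the same in 3 of 4 groups. None of these 14 markers was at 0 in any library. Other marker sums also had the order of Igf2 in some groups, but none of them in every group. Muscle and cartilage markers had it in both groups at E12.5, and erythroid and skin markers in Chd8+/- at both stages. Choroid plexus markers had it in Chd8+/- at E12.5 alone, and hypothalamic and diencephalic markers in Chd8+/+ at P5 alone. The library with the most meningeal marker RNA, replicate 2 of Chd8+/- at E12.5 (1277 CPM), had 386 CPM of Igf2, and the library with the least at that stage, replicate 1 of Chd8+/- (659 CPM), had 249.9 CPM. At P5 the summed markers ran from 388 to 500 CPM and Igf2 from 255 to 359 CPM. The part of the meningeal markers in the levels of Igf2 and H19 was not tested. The order was the same in 2 of 4 groups for Cdkn1c and Grb10, in 1 of 4 for Peg3 and Ndn and in 0 of 4 for Dlk1, Meg3, Plagl1 and Mest. Of the log2 CPM deviations from the group mean over the 12 libraries, Igf2 and H19 had a Pearson r of 0.92, and 0.90 over the 11 libraries without the one that stood apart. Igf2 also had an r of 0.85 with Cdkn1c and 0.77 with Grb10 (0.72 and 0.68 over the 11), and H19 of 0.83 with Cdkn1c (0.92 over the 11). Libraries share their tissue, so this describes them and no test was made. Among the genes whose deviations were most like those of Igf2 were Hs3st3b1 (r = 0.96), 5330425B07Rik (0.96), Ptpn14 (0.95) and Ptgfr (0.95), all at a mean level of 16.2 CPM or less.

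**Figure D3:**
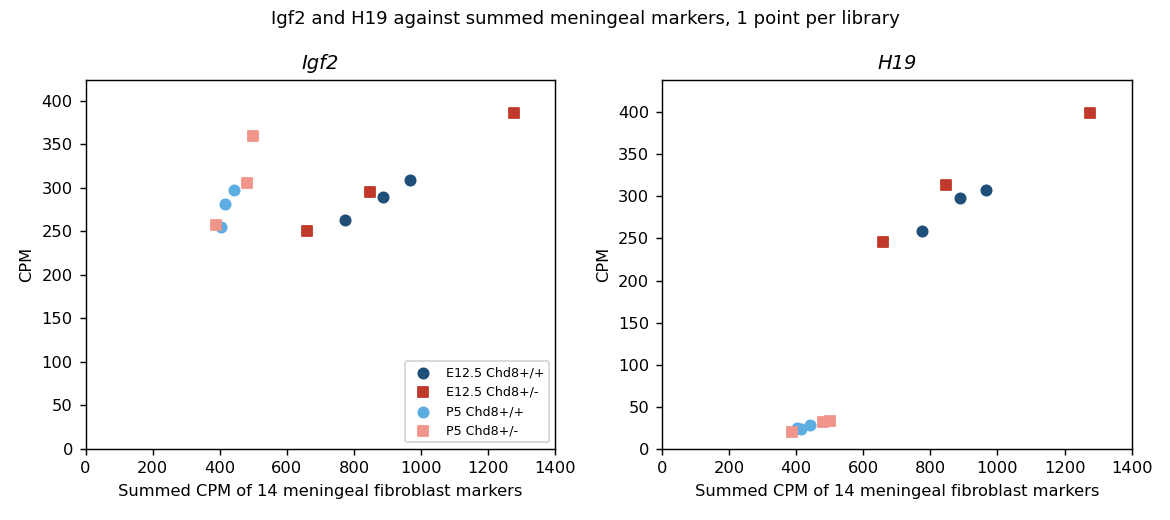
CPM of Igf2 and of H19 against the summed CPM of 14 meningeal fibroblast markers, with 1 point per library. Within each group the points of Igf2 climb with the marker level, and between the stages the points of H19 drop from between 245.5 and 399 CPM to between 20.2 and 33.3 CPM while those of Igf2 keep their range.

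Ndn varied more between libraries of the same group than any other member. At E12.5 it was at 118, 316 and 269 CPM in replicates 1, 2 and 3 of Chd8+/+ and at 129, 127 and 297 CPM in those of Chd8+/-. At P5 it was at 515, 300.2 and 481 CPM in Chd8+/+ and at 243, 491 and 238 CPM in Chd8+/-. The highest library of a group had from 1.71 to 2.68 times the level of the lowest, and neither genotype held all high or all low libraries. The counts behind these values were 5028 to 27635 per library. Its SD of log2 CPM within groups was 0.63, against 0.05 for Plagl1, 0.06 for Grb10 and 0.35 for Dlk1, the next widest member. Of the 2606 genes with a mean level of at least 100 CPM, 3 had a wider spread within groups than Ndn, namely Xist, CT010467.1 and Lars2.

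The neighbors of Ndn varied less between libraries of the same group. Magel2, another MAGE gene of the cluster, was at 81.3, 61.9 and 51.9 CPM in Chd8+/+ and at 72.2, 73.7 and 51.5 CPM in Chd8+/- at E12.5. In both groups of that stage, the library with the least Ndn had the most Magel2. At P5 Magel2 ran from 16.2 to 21.3 CPM, and the library with the least Ndn had the least Magel2 in Chd8+/+ (19.5 CPM in replicate 2). In Chd8+/- that library had the most Magel2 (19.9 CPM in replicate 3, beside 19.8 CPM in replicate 2). Mkrn3, a zinc finger gene of the same cluster, ran from 13.02 to 14.9 CPM at E12.5 and from 18.8 to 21.0 CPM at P5. These 2 neighbors were named after their values were seen. Xist, which is counted above 800 CPM in 1 library of each group and below 2.5 CPM in the others, was high in replicate 3 of Chd8+/+ (269 CPM of Ndn) and replicate 1 of Chd8+/- (129 CPM) at E12.5 and in replicate 1 of Chd8+/+ (515 CPM) and of Chd8+/- (243 CPM) at P5. In 1 of 4 groups this library had the most Ndn, and in the other 3 it lay in the middle. Of the genes tested, the deviations most like those of Ndn were those of Tmod3 (r = 0.94), Foxf1 (0.90), Gm28884 (0.88), Spata21 (0.88) and Zfp472 (0.87). Tmod3 moved little, from 109 to 116 CPM over the 6 E12.5 libraries, and Foxf1, Gm28884 and Spata21 had mean levels under 0.8 CPM.

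**Figure D4:**
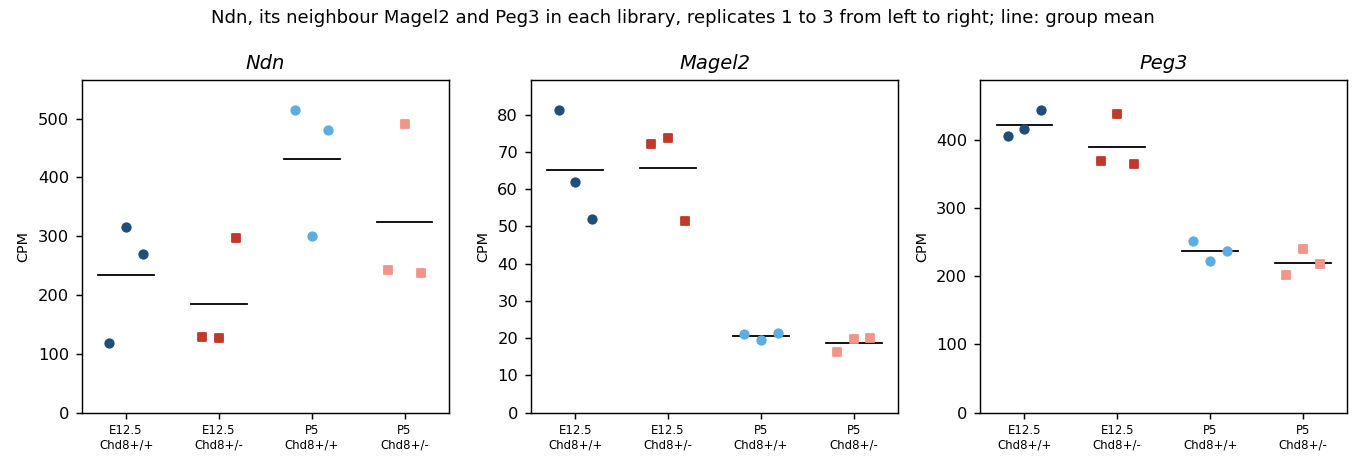
CPM of Ndn, its neighbor Magel2 and, for scale, Peg3 in the 12 libraries, with 1 point per library and a line at the group mean. Ndn ranges from 118 to 316 CPM within Chd8+/+ at E12.5, while Peg3 ranges from 405 to 444 CPM in the same libraries.

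With this spread, Ndn was 1.84-fold higher at P5 in Chd8+/+ and 1.76-fold higher in Chd8+/- by its estimates, with log2 fold changes of 0.88 (95% interval 0.03 to 1.74, edgeR adjusted p = 0.0529) and 0.81 (95% interval −0.04 to 1.67, edgeR adjusted p = 0.0722). The stages overlapped in both genotypes. In Chd8+/+ the difference passed on leaving out replicate 2 of Chd8+/+ at E12.5 or P5, any 1 of the 3 Chd8+/- libraries at E12.5 or replicate 2 of Chd8+/- at P5 (0.87 to 1.15, edgeR adjusted p from 0.0291 to 0.0491). In Chd8+/- it passed without replicate 1 of Chd8+/+ at E12.5, replicate 3 of Chd8+/- at E12.5 or replicate 3 of Chd8+/- at P5 (0.82 to 1.36, edgeR adjusted p from 0.00626 to 0.0499). Other libraries moved it the other way: without replicate 1 of Chd8+/+ at E12.5 the value in Chd8+/+ was 0.54 (edgeR adjusted p = 0.217), and without replicate 2 of Chd8+/- at P5 the value in Chd8+/- was 0.38 (edgeR adjusted p = 0.390). Without replicate 2 of Chd8+/- at E12.5 the latter was 0.60 (edgeR adjusted p = 0.195). Magel2 fell by 1.65 ± 0.16 SE in Chd8+/+ and by 1.82 ± 0.16 SE in Chd8+/- on the log2 scale (edgeR adjusted p = 1.56e-07 and 6.11e-08).

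The order of the members by level per kilobase (RPKM, from the CPM and the exon length) was turned over between the stages. In Chd8+/+ at E12.5, Mest had the highest mean at 149 RPKM, followed by Ndn at 142 and H19 at 121 RPKM, and the ranges of these neighbors overlapped. Grb10 came next at 92.9 RPKM, then Cdkn1c at 67.9 and Plagl1 at 63.3 RPKM with overlapping ranges, Igf2 at 50.2 RPKM, Peg3 at 31.7 and Meg3 at 27.0 RPKM with overlapping ranges, and Dlk1 at 13.7 RPKM. At P5, Ndn was highest at 262 RPKM, Meg3 followed at 142 RPKM and Igf2 at 48.6 RPKM, with ranges apart. Below them came Peg3 at 17.8, Cdkn1c at 14.004, H19 at 10.7, Grb10 at 7.78, Mest at 6.54, Plagl1 at 6.23 and Dlk1 at 0.442 RPKM, of which only Mest and Plagl1 overlapped. In Chd8+/- the order was the same at P5, where the ranges of Ndn and Meg3 and of Cdkn1c and H19 overlapped, and at E12.5 H19 and Ndn changed places within overlapping ranges.

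Between the genotypes at E12.5, no member passed the test, and the groups of all 10 overlapped. The test called 0.00553% of the 18081 genes, 5.15% had an unadjusted p under 0.05, DESeq2 called 0.0373%, and the groups of 11.4% of genes did not overlap. None of the 10 members had an unadjusted p under 0.05, and DESeq2 called none of them. The log2 fold changes of Chd8+/- over Chd8+/+ ran from −0.35 ± 0.39 SE for Ndn and −0.22 ± 0.14 SE for Meg3 to 0.13 ± 0.22 SE for Dlk1 and 0.15 ± 0.15 SE for H19, with a median of 0.02 against 0.0006 over all genes. The 95% intervals were narrowest for Plagl1, from −0.12 to 0.13, and Grb10, from −0.10 to 0.17, and widest for Ndn, from −1.23 to 0.54. Without replicate 2 of Chd8+/-, the values of Igf2, H19, Dlk1 and Cdkn1c went from 0.11, 0.15, 0.13 and 0.12 to −0.07, −0.04, −0.26 and −0.08, and none of them passed the test. For Ndn, leaving out 1 library gave from −0.064 (without replicate 2 of Chd8+/+) to −0.88 (without replicate 3 of Chd8+/-), and for Meg3 from −0.069 (without replicate 1 of Chd8+/+) to −0.36 (without replicate 3 of Chd8+/+).

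**Figure D5:**
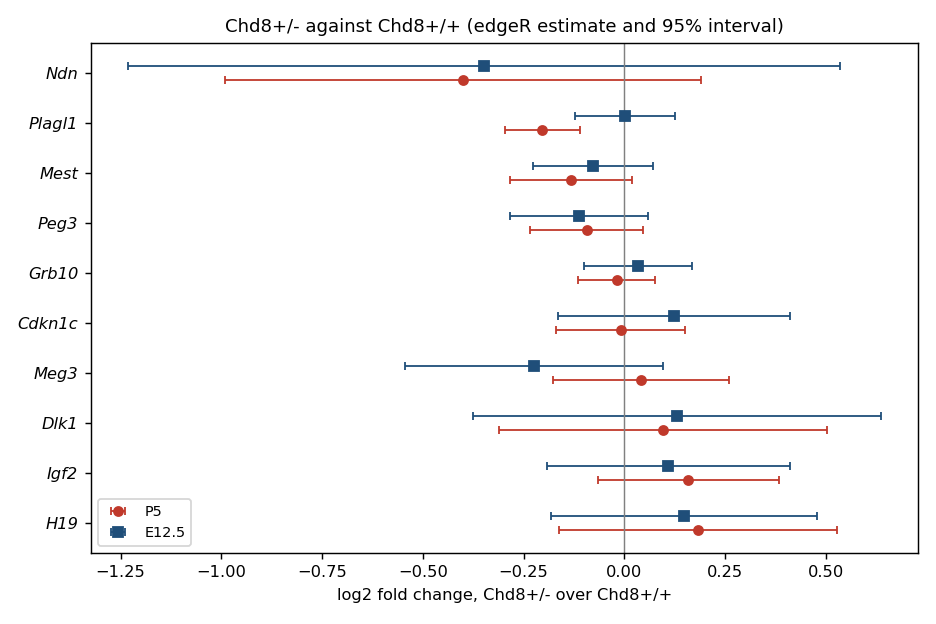
Log2 fold change of each gene in Chd8+/- over Chd8+/+ with its 95% interval from the edgeR model, at P5 (circles) and at E12.5 (squares). All intervals at E12.5 span 0, and at P5 that of Plagl1, from −0.30 to −0.11, is the only one that does not.

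At P5, Plagl1 was the member that stood nearest to a call. Plagl1 encodes a zinc finger transcription factor that restrains proliferation in cultured cells and acts on other imprinted genes. It was at 50.1, 48.0 and 48.0 CPM in Chd8+/+ and at 40.7, 43.1 and 41.7 CPM in Chd8+/-, on 1699 to 2691 counts per library, and the genotypes did not overlap. Its SD on the log2 scale was 0.036 in Chd8+/+ and 0.042 in Chd8+/-, of which counting error alone gives 0.030 and 0.034. The log2 fold change was −0.20 ± 0.04 SE (95% interval −0.30 to −0.11), with an edgeR unadjusted p of 0.000645 and an adjusted p of 0.0973, which misses the threshold of 0.05. DESeq2 gave an adjusted p of 0.0153. It called 5.22% of genes at P5, against 0.00536% for edgeR. A share of 17.8% of genes had an edgeR unadjusted p under 0.05, and the groups of 23.4% did not overlap, so that 1 of 10 members with such a p and 1 of 10 without overlap lie below the background. Leaving out replicate 2 of Chd8+/- brought the edgeR adjusted p of Plagl1 to 0.0487. DESeq2 called it without that library (adjusted p = 0.0157) or without replicate 3 of Chd8+/+ (0.0438), and not without any of the other 4 (0.0710 to 0.261). Offsets for gene length brought the log2 fold change to −0.15 (edgeR adjusted p = 0.177, and 0.150 for DESeq2 with the same offsets). With the replicate number as a block it stayed at −0.20 and was not called (DESeq2 adjusted p = 0.180, edgeR adjusted p = 0.204).

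The other 9 members overlapped between the genotypes at P5. Ndn had a log2 fold change of −0.40 ± 0.27 SE (edgeR adjusted p = 0.463), which ran from −0.21 without replicate 3 of Chd8+/- to −0.83 without replicate 2 of Chd8+/- (edgeR adjusted p = 0.0526). Mest had a log2 fold change of −0.13 ± 0.07 SE (edgeR adjusted p = 0.340) and Peg3 of −0.09 ± 0.06 SE (edgeR adjusted p = 0.472). Leaving out 1 library, Mest ran from −0.081 (without replicate 1 of Chd8+/+) to −0.19 (without replicate 3 of Chd8+/+) and Peg3 from −0.036 (without replicate 1 of Chd8+/-) to −0.16 (without replicate 2 of Chd8+/-), and neither passed. Igf2 and H19 had log2 fold changes of 0.16 ± 0.10 SE and 0.18 ± 0.16 SE (edgeR adjusted p = 0.441 and 0.570). Without replicate 3 of Chd8+/- these were 0.041 and 0.062, and without replicate 2 of Chd8+/- Igf2 was at 0.27 (edgeR adjusted p = 0.0926). Dlk1, Meg3, Grb10 and Cdkn1c lay between −0.02 and 0.10. For Grb10 the 95% interval ran from −0.11 to 0.08 and for Cdkn1c from −0.17 to 0.15. Without replicate 2 of Chd8+/-, the library with the least H19 at P5, DESeq2 called H19 higher by 0.38 (adjusted p = 0.00221), and edgeR did not (adjusted p = 0.0530).

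Summed markers of some other tissues and cell types did not overlap between the genotypes at P5, although edgeR called none of their genes. Summed choroid plexus markers ran from 458 to 591 CPM in Chd8+/+ and from 333 to 394 CPM in Chd8+/-, and 10 of the 12 genes did not overlap between the genotypes. Summed markers of striatum and ganglionic eminence ran from 770 to 800 CPM and from 582 to 714 CPM, and 11 of 15 did not overlap. Endothelial and pericyte markers summed to 565 to 626 CPM and 536 to 551 CPM, with 7 of 16 not overlapping, against 23.4% of all genes at P5. None of these genes was at 0 in a P5 library, and DESeq2 called 4, 6 and 4, against 5.22% of all genes. The summed meningeal markers overlapped, from 403 to 443 CPM in Chd8+/+ and 388 to 500 CPM in Chd8+/-. At E12.5 the endothelial and pericyte sum did not overlap either, at 385 to 402 CPM in Chd8+/+ and 351 to 374 CPM in Chd8+/-. Of the 14 such genes tested there, 13 were lower in Chd8+/- and 5 did not overlap, against 11.4% of all genes, and neither edgeR nor DESeq2 called any. The part of these markers in the values of Plagl1, Igf2 and H19 was not tested.

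No difference of the genotype effect between the stages passed the test for any member. The edgeR interaction test called 0% of the 19676 genes, and 10.02% of genes, and 1 of the 10 members, had an unadjusted p under 0.05. DESeq2 called 8 genes and no member. Plagl1 had the smallest p among the members, with an interaction of −0.22 ± 0.07 SE on the log2 scale (95% interval −0.37 to −0.07, edgeR unadjusted p = 0.00695, adjusted p = 0.375). For Meg3 it was 0.25 ± 0.20 SE (edgeR adjusted p = 0.700, and 0.12 to 0.40 on leaving out 1 library), and the other 8 members lay between −0.15 and 0.03.

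Among other imprinted genes, a list of 73 that includes genes imprinted only in placenta or other tissues, rises outnumbered falls between the stages. Of 67 tested in Chd8+/+, 37 were higher and 25 lower at P5, and in Chd8+/- 37 were higher and 27 lower, against 41.4% higher and 41.7% lower, and 41.3% and 41.6%, of all genes. The list had median log2 fold changes of 0.55 and 0.48 against −2.81 and −2.96 for the 10 growth genes. The rises of smallest p in Chd8+/+ were those of Rasgrf1, a Ras exchange factor of neurons (6.80 ± 0.14 SE), Snrpn, a splicing protein gene that shares a transcript with Snurf (2.10 ± 0.06 SE), Gatm, an enzyme of creatine synthesis (2.56 ± 0.07 SE), Herc3 (1.97 ± 0.05 SE) and Slc22a3, an organic cation transporter (6.53 ± 0.19 SE). The falls were those of Peg12, near Ndn (−4.95 ± 0.10 SE), Asb4 (−4.54 ± 0.17 SE), Igf2r, the receptor that clears IGF2 (−1.23 ± 0.06 SE), Gab1 (−1.19 ± 0.06 SE) and Peg10, a retrotransposon-derived gene (−3.12 ± 0.15 SE). The highest edgeR adjusted p of these 10 was 7.35e-11. In Chd8+/- the same rule named the same falls, and Begain (3.14 ± 0.09 SE) in place of Herc3. By genotype, none of the list passed at E12.5 (63 tested, of which 1 was higher and 1 lower at an unadjusted p under 0.05) or at P5 (65 tested, 3 higher and 13 lower), against 5.15% and 17.8% of all genes at that p in either direction. DESeq2 called 0 of the list at E12.5 and 5 at P5, against 0.0373% and 5.22% of all genes. The smallest p at E12.5 belonged to Sfmbt2 (−0.57 ± 0.13 SE), Calcr (0.55 ± 0.13 SE) and Htr2a (−0.41 ± 0.20 SE), all with an edgeR adjusted p of 0.924 or more.

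Genes of the IGF and insulin pathway were split in direction between the stages. Of 40 tested in Chd8+/+, 17 were higher and 18 lower at P5, and in Chd8+/- 18 and 19, shares near those of all genes, with medians of 0.019 and −0.0013. The proteins that bind Igf2 mRNA were among the strongest falls: Igf2bp1 (−6.65 ± 0.16 SE), Igf2bp2 (−4.76 ± 0.09 SE) and Igf2bp3 (−4.06 ± 0.12 SE) in Chd8+/+. With them fell Pappa, the protease that frees IGF from its binding proteins (−4.43 ± 0.12 SE), and Irs1, an insulin receptor substrate (−1.63 ± 0.07 SE). The rises of smallest p were those of Pik3r1 (2.04 ± 0.05 SE) and Pik3r2 (1.56 ± 0.05 SE), regulatory subunits of PI3 kinase, and of Grb14, the relative of Grb10 (3.09 ± 0.09 SE). The highest edgeR adjusted p of these 8 genes was 1.19e-11. In Chd8+/- the same 3 rises were named, and among the falls Igf2r (−1.50 ± 0.06 SE) in place of Irs1.

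By genotype, no gene of the pathway passed edgeR's threshold at either stage. At E12.5, 0 of 39 had an unadjusted p under 0.05, against 5.15% of all genes, and DESeq2 called 0. At P5, 1 was higher and 10 were lower of 40 at that p, against 17.8% of all genes in both directions, and DESeq2 called 2 of the 40, near its 5.22% of all genes. Igf2r had the smallest p of both lists at P5: it was at 61.3 to 65.7 CPM in Chd8+/+ and at 48.5 to 52.7 CPM in Chd8+/-, with a log2 fold change of −0.31 ± 0.04 SE (edgeR adjusted p = 0.0881, DESeq2 adjusted p = 3.82e-05). Casd1 (−0.27 ± 0.05 SE), Herc3 (−0.20 ± 0.05 SE), Akt2 (0.19 ± 0.04 SE) and Igf1r (−0.22 ± 0.06 SE) followed, with edgeR adjusted p from 0.0950 to 0.123 and groups that did not overlap. The interaction called none of either list, and its smallest p in both lists was that of Igf2r (−0.27 ± 0.08 SE, edgeR adjusted p = 0.362).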

How the data were processed

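Per the study's methods and the labels, mRNA libraries made with dUTP were sequenced in paired ends, trimmed with Trim Galore 0.4.1 after FastQC 0.11.2, aligned to GRCm38 with TopHat2 2.1.0 and counted on Ensembl genes with featureCounts 1.5.0, and the authors tested them with DESeq2 1.10.1. The deposited values are raw counts per gene and sequencing run, without normalization; the recorded P5 command sets no strand, and none is recorded for E12.5. Each library's 2 runs were summed: their chi-squared over its degrees of freedom was 1.18 to 1.54, against 7.09 to 49.7 for libraries of 1 group. Symbols were found for 46005 of 46603 genes, and all 10 members passed the filter in every comparison.

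Genotypes were compared within a stage (6 libraries), and stages and the interaction in a model of all 12, with the quasi-likelihood test of edgeR 4.0.16 (R 4.3.3), TMM scaling, filterByExpr and Benjamini-Hochberg adjustment over all genes tested, at a threshold of 0.05. The biological coefficient of variation was 9.18% at E12.5 and 7.42% at P5. A standard error is the log2 fold change divided by the root of F. At totals of 38774591 to 54695236 counts, the counting error of a member in 1 library was at most 0.045 on the log2 scale, except for Dlk1 at P5 (0.13 and 0.14 in Chd8+/+ and Chd8+/-, beside an SD within groups of 0.13 and 0.39). The procedure was tested on simulated data. The alternatives were DESeq2 1.42.0, voom (limma 3.58.1), other scalings, no filter, a threshold of 0.1, offsets for gene length (loess span 0.5), the replicate number as a block, all 12 libraries in 1 model and each library left out, and, added after seeing the data, a term for high Xist counts and DESeq2 with offsets, with the block and with each library left out. The members and lists were chosen with earlier results of these data known. Beyond the members, up to 5 genes of smallest p per direction were named from each of 2 lists (3 where none passed), and 5 genes most like Igf2, Plagl1 and Ndn; some genes that these rules name are not reported here. Sequences are from RefSeq (GRCm38.p6). Python 3.11.15 with pandas 2.3.3 made the tables, and matplotlib 3.10.9 drew the plots. Reads by parental allele were not analysed here.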

Additional observations from a re-analysis of the deposited data

How the results depend on the processing

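Falls between the stages passed under every alternative run for H19, Dlk1, Cdkn1c, Peg3, Grb10, Plagl1 and Mest in both genotypes, as did the rise of Meg3. Over all alternatives, 168 of 180 member values in Chd8+/+ and 171 of 180 in Chd8+/- kept their direction and side of the threshold, as did 214 of 230 for genotype at E12.5, 208 of 230 at P5 and 155 of 180 for the interaction. Ndn in Chd8+/+ passed with voom (0.97, adjusted p = 0.0308), RLE (adjusted p = 0.0435), upper quartile scaling (adjusted p = 0.0470) and no filter (adjusted p = 0.00116), and in Chd8+/- with no filter (adjusted p = 0.00281). For Igf2 in Chd8+/- between the stages, DESeq2 gave 0.024, RLE 0.029 and upper quartile scaling 0.043, and DESeq2's median over its genes was 0.10 against −0.005 for edgeR.

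At P5, 1 member, Plagl1, was called at a threshold of 0.1, by DESeq2 and without the filter (edgeR adjusted p = 0.0113), against 0 in the edgeR test. Its adjusted p over all settings ran from 0.0113 to 0.390. Called genes at P5 numbered 1 with edgeR, 136 at a threshold of 0.1, 651 with DESeq2, 995 without the filter, 4 in the 12-library model and 210 with DESeq2 and length offsets. At E12.5 they numbered 1, and 5 with DESeq2, 13 without the filter, 2 in the 12-library model, 0 with the Xist term and 4 with DESeq2 and length offsets. For the interaction they numbered 0, and 8 with DESeq2 and 17 without the filter. Plagl1 at E12.5 was −0.0047 without the filter and −0.00070 with DESeq2 and length offsets, and Grb10 at P5 was 0.040 with length offsets and 0.041 with them in DESeq2. The interaction of Peg3 was −0.00017 with DESeq2 and −0.00070 without the filter. The cause of these changes was not tested.

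Leaving out each library in turn, with edgeR and DESeq2 for the genotypes, called 0 to 2 members and 1 to 906 genes at P5, 0 to 16 genes at E12.5 and 0 to 2 for the interaction. Log2 fold changes by genotype at E12.5 ran from −0.074 to 0.24 for Igf2, −0.040 to 0.31 for H19, −0.26 to 0.32 for Dlk1, −0.080 to 0.23 for Cdkn1c, −0.0012 to 0.077 for Grb10 and −0.036 to 0.047 for Plagl1. For Ndn they ran from −0.88 to −0.064 at E12.5 and −0.83 to −0.21 at P5. At P5 they ran from −0.12 to 0.27 for Dlk1, −0.076 to 0.15 for Meg3, −0.064 to 0.063 for Cdkn1c and −0.055 to 0.0067 for Grb10. Between the stages Igf2 ran from −0.11 to 0.0076 in Chd8+/+ and −0.14 to 0.17 in Chd8+/-. Interactions ran from −0.094 to 0.23 for Igf2, −0.12 to 0.21 for H19, −0.26 to 0.35 for Dlk1, −0.23 to 0.065 for Cdkn1c, −0.063 to 0.10 for Peg3 and −0.50 to 0.49 for Ndn. None of these passed the threshold.

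Replicate numbers are shared by the groups, but same-numbered libraries of the 2 genotypes did not deviate together at E12.5 (correlations of −0.16, −0.06 and −0.05). At P5 the correlations were 0.19, 0.08 and 0.04, of which the first lies above 0.1, the minimum set for a pairing. Libraries of unlike number ran from −0.14 to 0.07 at P5. With the replicate number as a block, 0 genes were called at E12.5 and 4 at P5 (2 and 81 with DESeq2), no member was called by genotype, and Ndn passed between the stages in Chd8+/+ (0.99, adjusted p = 0.0327).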

Other observations

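Genes that keep or read imprints were mostly lower at P5. Of 15 listed, 13 were tested, and in Chd8+/+ 11 were lower and 1 higher at P5, and in Chd8+/- 11 and 2, against 41.7% and 41.6% lower over all genes. Uhrf1, which brings Dnmt1 to newly copied DNA, fell by 4.57 ± 0.08 SE on the log2 scale in Chd8+/+ (edgeR adjusted p = 1.35e-15), Dnmt1, the maintenance methyltransferase, by 1.51 ± 0.06 SE, Smchd1 by 1.43 ± 0.04 SE, Trim28, the corepressor that Zfp57 recruits, by 1.42 ± 0.06 SE and Ctcf, which insulates Igf2 from its enhancers on the maternal copy, by 1.33 ± 0.04 SE. Zfp57 itself rose, by 0.18 ± 0.08 SE in Chd8+/+ (edgeR adjusted p = 0.0490) and 0.27 ± 0.08 SE in Chd8+/- (edgeR adjusted p = 0.00644), and its groups overlapped in Chd8+/+. By genotype, none of the 13 passed edgeR's threshold at either stage, 0 higher and 3 lower of them had an unadjusted p under 0.05 at E12.5 and 0 and 4 at P5 (against 5.15% and 17.8% of all genes in either direction), and DESeq2 called 0 and 2 (against 0.0373% and 5.22%).

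Of the other CDK inhibitors, 5 were tested between the stages, and 3 were higher and 2 lower at P5 in both genotypes, against 41.4% higher and 41.7% lower over all genes in Chd8+/+ and 41.3% and 41.6% in Chd8+/-. In Chd8+/+ Cdkn1b fell by 1.39 ± 0.04 SE and Cdkn2c by 1.103 ± 0.11 SE, while Cdkn1a rose by 0.85 ± 0.06 SE, Cdkn2d by 0.90 ± 0.07 SE and Cdkn2b by 3.04 ± 0.50 SE on the log2 scale (highest edgeR adjusted p = 4.98e-05). Cdkn1c, the imprinted one, had a log2 fold change of −2.28 ± 0.12 SE. By genotype, neither edgeR nor DESeq2 called any of the other CDK inhibitors at either stage. At P5, 2 were higher and 1 lower of 5 at an edgeR unadjusted p under 0.05, against 17.8% of all genes in either direction. The groups of 3 of the 5 did not overlap, against 23.4% of all genes. At E12.5, 0 were higher and 1 lower of 4 at that p, against 5.15%.

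Among the genes whose deviations from the group means over the 12 libraries were most like those of Plagl1 were Ammecr1l (r = 0.97), Vezf1 (0.94), Npr1 (0.94) and Gm30414 (0.93). Dlk1, looked up after its values were seen, was most like Otx2 (r = 0.97, and 0.94 over the 11 libraries without the one that stood apart), which was at 73.2 CPM in the library that stood apart at E12.5 and at 46.8 to 52.0 CPM in the other 5 libraries of that stage. These likenesses are descriptions over few libraries, with no test.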
